A study of Rattus norvegicus with 28 samples.

Results

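A set of 10 genes of the skeletal muscle contractile apparatus was followed in rat spinal cord tissue: the troponin subunits Tnnc2, Tnnc1, Tnni2 and Tnnt3, the actin gene Acta1, the myosin light chains Mylpf and Myl1, the Z disc protein gene Actn2, the calcium pump gene Atp2a1 and the creatine kinase gene Ckm. They are 10 of the 35469 genes or other targets (features) on the array, were found by gene name among the non-control spots, and are covered by 11 probes, 1 each except for Myl1 with 2. They were chosen because Tnnc2 had the largest decrease in the injured cord at 1 week, so every value that compares cord with the uninjured group at T0, or that uses the 1-week group, is given as a description without a test. Adult female Sprague Dawley rats received a contusion of 250 kdyn to the thoracic cord, and 1.5 cm of cord with the epicentre was taken at 1 week (T1), 2 weeks (T2), 4 weeks (T4) or 8 weeks (T8). The T0 group is labelled sham and is called uninjured in the methods of the study. In T1_NPC, neural progenitor cells (NPC) grown as neurospheres from injured adult rat cord were placed right after injury and the cord was taken at 1 week, and in T2_NPC they were placed 1 week after injury and the cord was taken at 2 weeks. The methods list the immunosuppressant tacrolimus, started before transplantation, in the post-surgery care of all animals. Injured controls received medium without cells, and each of the 7 groups held 4 biological replicates. The labels state that the dura mater was left out of the tissue in every group but T2_NPC, for which it is not mentioned.

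Muscle contracts when myosin heads, held in thick filaments, pull on thin filaments of actin. Troponin sits on the thin filament and makes this depend on calcium: troponin C binds calcium, troponin I inhibits the actin and myosin interaction, and troponin T ties both to tropomyosin. Each subunit has fast, slow or cardiac forms, and several of these genes are also transcribed at low levels outside muscle.

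The probe sequences of 4 members that the results turn on are printed because each array value is the brightness of 1 such 60-base probe. They were read from the deposited scanner files and run 5′ to 3′ in the sense of the transcript. Coordinates are those of rat build rn4 in the files: Tnnc2 at chr3:155807970-155808029 on the minus strand, Tnnt3 at chr1:202758663-202758722 on the plus strand, Mylpf at chr1:186474405-186474464 on the plus strand and Actn2 at chr17:68763896-68763955 on the plus strand. Capitals mark the longest stretch that each shared letter for letter with a probe for another gene on the array. It spanned 16 bases for Tnnc2 and Mylpf, 13 for Tnnt3 and 12 for Actn2.
Tnnc2: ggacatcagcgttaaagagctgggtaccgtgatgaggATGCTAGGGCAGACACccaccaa
Tnnt3: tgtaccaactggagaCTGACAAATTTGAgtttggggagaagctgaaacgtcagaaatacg
Mylpf: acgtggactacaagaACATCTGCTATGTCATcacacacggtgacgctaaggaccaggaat
Actn2: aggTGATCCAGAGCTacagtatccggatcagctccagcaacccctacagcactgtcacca
All 4 probe sequences can be read over their 60 bases in at least 1 frame without a stop codon. The Tnnc1 probe was designed to an expressed sequence tag, so its link to the gene rests on the array's own naming. The pair of Myl1 probes is listed on opposite strands, and the Atp2a1 probe has no position in the files. Of the 11 probe targets, 9 matched a RefSeq transcript, and RefSeq names Mylpf as Myl11.

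Each array held 45018 spots, of which 74.5% to 82.7% were well above background and none was saturated. Values are log2 intensities quantile-normalised by the authors, so that a difference of 1 is a 2-fold difference in signal. The scanner outputs of 16 of the 28 samples did not match their own column of the authors' value table: their spots ranked exactly as in the column of another sample (Spearman 1), and no other output exceeded 0.993. All results rest on the sample names of the value table, and values with the scanner outputs as deposited or with the 12 undisputed arrays alone are set beside some of them. Scan sessions were taken from the outputs matched by spot rank. They fell into 3, with 8 and 12 time-course arrays in the first and second and the 8 transplant arrays in the third. Under the deposited names all T1_NPC arrays fell in the second session. T0 replicate 2, T1 replicate 4, T4 replicate 1 and T8 replicate 3 then fell in the third. The 12 undisputed arrays were the 8 of the first session and the 4 T2_NPC arrays. First-session and undisputed differences from T0 are therefore the same values, and the first session held 1 T1 and 1 T4 array. In whole tissue, fewer cells of a type and less RNA per cell cannot be told apart.

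Relative to T0 the 10 members split. Tnnc2, Tnnc1 and Mylpf were lower and Acta1, Tnnt3 and Tnni2 were higher in all 4 injured groups. Actn2 was also lower by its means, while Atp2a1, Ckm and Myl1 lay near T0 or near background. At T1, 7 of the 10 members passed an adjusted p under 0.05 in limma, beside 44.1% of all features (19.1% higher and 25.1% lower). The members called were 6 at T2, 7 at T4 and 6 at T8, beside 40.0%, 38.5% and 39.7% of all features. Injured and T0 values did not overlap for 5 members at T1 and T2 and for 6 at T4 and T8, beside 41.1%, 37.0%, 37.5% and 38.6% of all features. With the scanner outputs under their deposited sample names 0 features of the whole array were called at T1, T4 and T8 and 1 at T2. These counts describe genes chosen from the same arrays, and the 4 differences share the T0 samples. The mean over the 10 members differed from T0 by -0.19 on the log2 scale at T1, and by -0.25, -0.34 and -0.20 at T2, T4 and T8.

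**Figure D1:**
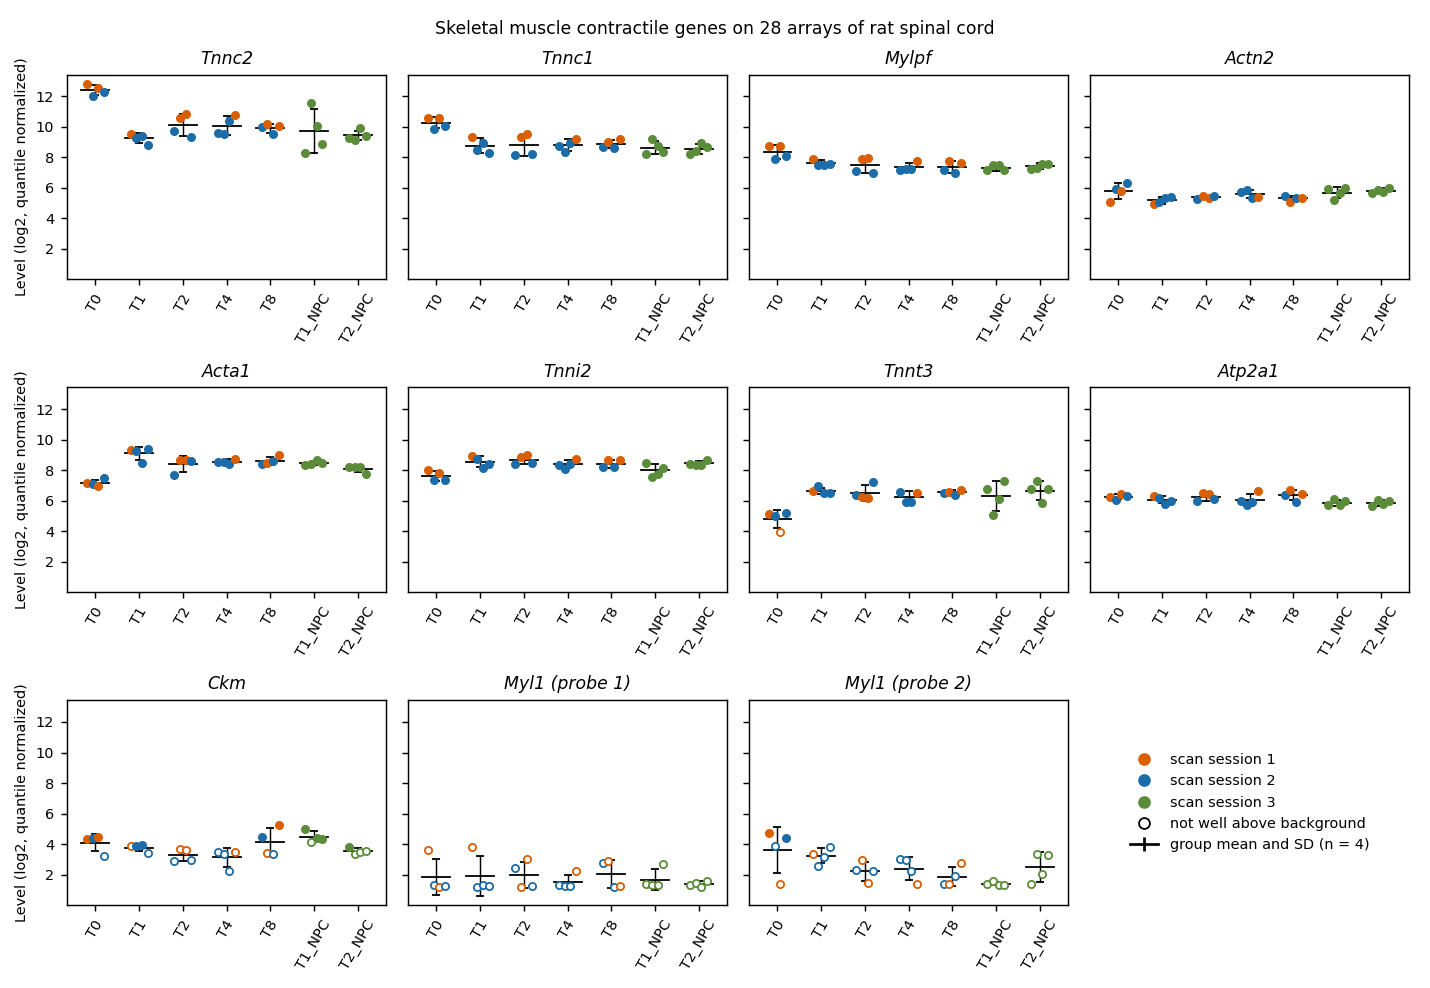
Log2 level (y axis, quantile-normalised intensity) of each of the 11 probes in the 7 groups (x axis), with 1 point per array coloured by scan session, open points for signals not well above background, and bars for the mean and SD of 4 arrays. Tnnc2 lay at 12.01 to 12.81 in T0 and at 8.79 to 9.55 at T1, Acta1 lay at 6.99 to 7.46 in T0 and at 8.48 to 9.40 at T1, and both Myl1 probes were almost always open.

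Tnnc2 encodes the troponin C of fast skeletal muscle fibres. Its log2 levels were 12.81, 12.01, 12.57 and 12.25 in the T0 replicates and 9.55, 9.29, 9.39 and 8.79 at T1. The T2 arrays gave 9.71, 10.56, 10.87 and 9.35, the T4 arrays 9.57, 9.55, 10.37 and 10.78 and the T8 arrays 9.95, 10.20, 9.50 and 10.02. Every T0 array was above every array of the injured groups, and no injured group returned to the T0 range by 8 weeks. The difference from T0 was -3.15 ± 0.47 (SE) at T1, an 8.90-fold lower signal, and -2.29 ± 0.47, -2.34 ± 0.47 and -2.49 ± 0.47 at T2, T4 and T8. The T1 difference was -3.14 in the first scan session and -2.97 in the second. Decreases at T1 were ranked for features named by a gene symbol and well above background on all 8 arrays of T0 and T1. The ranking also required a limma adjusted p under 0.05 and all T1 values below all T0 values. Tnnc2 stood at its end, and the next gene was the neuritin gene Nrn1 at -2.91. With scanner outputs under their deposited sample names the T1 difference of Tnnc2 was -1.78. The 12 undisputed arrays gave the first-session value of -3.14, which rests on 1 T1 array.

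Tnnc1, the troponin C of slow fibres and heart, had the same direction with a smaller size. Its levels were 10.58, 9.87, 10.56 and 10.02 in T0 and 9.35, 8.50, 8.92 and 8.26 at T1. At T2 they were 8.16, 9.34, 9.49 and 8.24, at T4 8.73, 8.35, 8.93 and 9.22 and at T8 8.67, 9.02, 8.62 and 9.18. The T0 arrays were again all above the injured ones, and the injured groups overlapped each other. The difference from T0 was -1.50 ± 0.30 at T1 and between -1.45 and -1.39 at the later times. The T1 difference was -1.22 in the first scan session and -1.39 in the second, and -0.73 with scanner outputs under their deposited names.

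The other troponin subunits went the opposite way. Tnni2, the fast-fibre inhibitory subunit, was at 7.99, 7.33, 7.79 and 7.38 in T0 and at 8.92, 8.75, 8.14 and 8.41 at T1. At T2 it was at 8.41, 8.87, 9.02 and 8.44, at T4 at 8.31, 8.11, 8.40 and 8.72 and at T8 at 8.18, 8.66, 8.21 and 8.64. Each time-course array after injury was above the T0 range, which ended at 7.99. The differences were 0.93 ± 0.21, 1.07, 0.76 and 0.80 at T1, T2, T4 and T8, and the T1 value was 1.03 in the first scan session and 1.08 in the second, and 0.35 with the deposited names.

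Tnnt3 encodes the tropomyosin-binding subunit of fast fibres. Its levels were 5.13, 5.02, 3.95 and 5.21 in T0, of which the lowest was not well above background, and 6.62, 6.96, 6.53 and 6.50 at T1. The T2 arrays gave 6.35, 6.23, 6.19 and 7.25, the T4 arrays 6.59, 5.88, 5.92 and 6.51 and the T8 arrays 6.52, 6.57, 6.39 and 6.70. No time-course array after injury reached down to the T0 values. The differences were 1.82 ± 0.37, 1.68, 1.40 and 1.72 in time order, and that of T1 was 2.08 in the first scan session and 1.54 in the second. Its size depended on the background step: with normexp correction of the scanner signals the T1 difference was 0.62, and with the deposited names it was 1.13.

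Acta1, the main actin of adult skeletal muscle thin filaments, had the largest positive difference among the members at T1. Its levels were 7.13, 7.08, 6.99 and 7.46 in T0 and 9.34, 9.23, 8.48 and 9.40 at T1. At T2 they were 7.65, 8.66, 8.66 and 8.62, at T4 8.57, 8.54, 8.39 and 8.76 and at T8 8.42, 8.45, 8.60 and 8.97. All time-course arrays after injury were above all T0 arrays, and T2 replicate 1, at 7.65, was the nearest to them. The difference was 1.95 ± 0.21 at T1, a 3.85-fold higher signal, then 1.23, 1.40 and 1.44. The T1 difference was 2.27 in the first scan session and 1.77 in the second, and 0.68 with scanner outputs under their deposited names.

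Mylpf, the regulatory light chain of fast myosin, was lower after injury, with overlap at the early times. It was at 8.73, 7.87, 8.72 and 8.09 in T0 and at 7.91, 7.50, 7.51 and 7.58 at T1. At T2 it was at 7.11, 7.90, 7.94 and 6.96, at T4 at 7.19, 7.22, 7.25 and 7.73 and at T8 at 7.14, 7.78, 6.94 and 7.62. The T0 replicates formed a higher and a lower pair, and the higher T1 and T2 arrays reached the lower pair. The differences were -0.73 ± 0.23, -0.88, -1.01 and -0.98. The higher pair of T0 arrays was scanned in the first session, and the T1 difference was -0.81 in the first scan session and -0.45 in the second.

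Actn2, an alpha-actinin that anchors thin filaments at the Z disc, was at 5.06 to 6.34 in T0 and at 4.94 to 5.42 at T1, so the groups overlapped. Its difference was -0.60 ± 0.20 at T1 and -0.39, -0.20 and -0.46 at T2, T4 and T8. At T2 the difference was -0.02 in the first scan session and -0.76 in the second, and with scanner outputs as deposited the T1 value was 0.20, with the opposite sign.

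Atp2a1, the calcium pump of the fast-fibre sarcoplasmic reticulum, was well above background on all 28 arrays and stayed between 5.62 and 6.68. Its differences from T0 ran from -0.21 to 0.10, with an SE of 0.18. Ckm, the muscle creatine kinase that buffers energy supply, was near background, with 3 T0 arrays, 2 T1 arrays, no T2 or T4 array and 2 T8 arrays well above it. Its level was at least 1.17-fold lower at T2 and at least 1.34-fold lower at T4 than at T0, with overlapping values, and the T8 mean of 4.14 ± 0.91 (SD, n = 4) compared with 4.10 ± 0.58 in T0. Neither Myl1 probe, for the essential light chain of fast myosin, was above background on any injured or transplanted array, and only 1 of them was above it on 2 T0 arrays, so no fold is given.

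**Figure D2:**
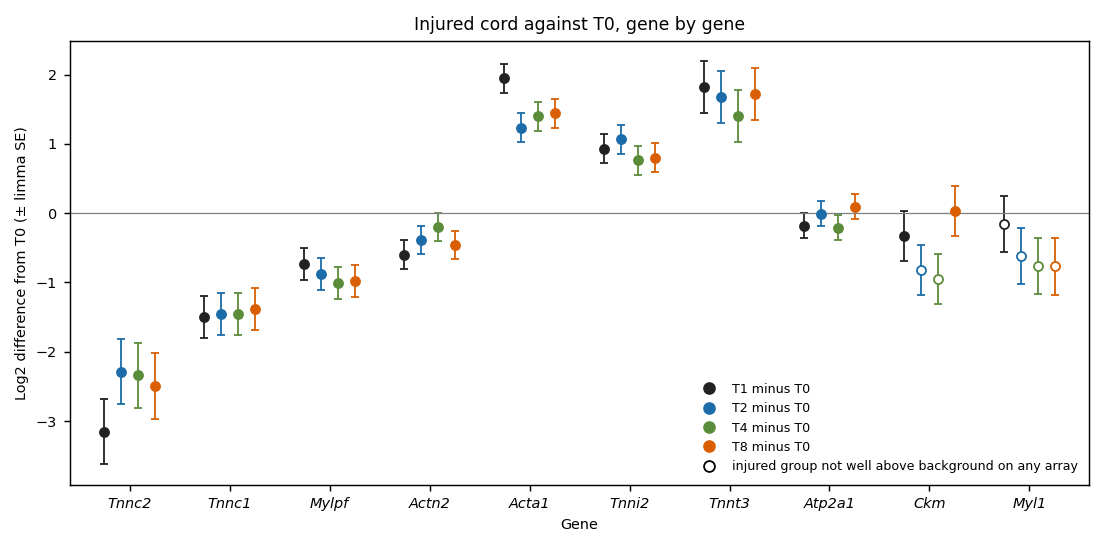
Log2 difference from T0 (y axis) of each member (x axis) in each injured group, coloured by time, with bars for the limma SE and open points where no array of the injured group was well above background. Tnnc2 ran from -3.15 at T1 to -2.49 at T8 and Acta1 from 1.95 to 1.44, so that members of one filament system lay on both sides of 0.

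Between consecutive times after the first week the members were tested, since these arrays did not serve to choose them. None of the 10 was called by limma with Benjamini-Hochberg adjustment between T2 and T4 or between T4 and T8, beside 0.0761% and 0.0902% of all features. None and 1 of them had an unadjusted limma p under 0.05, beside 3198 and 1716 of all 35469 features. No member's T4 values lay wholly apart from T2 or T8, which was so for 5.36% and 3.91% of all features. For Tnnc2 the limma difference was -0.05 (95% interval -1.03 to 0.92; adjusted p = 0.9999) from T2 to T4 and -0.15 (95% interval -1.12 to 0.82; adjusted p = 0.9998) from T4 to T8. For Acta1 the limma differences were 0.17 (95% interval -0.27 to 0.60; adjusted p = 0.885) and 0.04 (95% interval -0.39 to 0.48; adjusted p = 0.9998). The intervals of Tnnc2 were the wider ones and allow larger changes in either direction. The single unadjusted p belonged to Ckm, whose limma difference from T4 to T8 was 0.99 (95% interval 0.25 to 1.74; adjusted p = 0.673), with no T4 array well above background. From T1 to T2, given as a description, Tnnc2 was 0.86 ± 0.47 higher and Acta1 differed by -0.71 ± 0.21. No member was called there, beside 1.48% of all features.

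At 2 weeks the cords that had received NPC 1 week after injury were compared with injured cords without cells. Tnnc2 was at 9.28, 9.16, 9.89 and 9.40 in T2_NPC, so that replicates 1 and 2 lay below the lowest T2 array and the groups overlapped. Acta1 was at 8.18, 8.21, 8.22 and 7.77, Tnni2 at 8.39, 8.31, 8.36 and 8.69 and Tnnt3 at 6.76, 7.32, 5.83 and 6.76, all overlapping T2. None of the 10 members was called by limma, beside 9.47% of all features. An unadjusted limma p under 0.05 was found for 1 member, beside 8604 of all 35469 features. The limma difference of Tnnc2 was -0.69 (95% interval -1.66 to 0.29; adjusted p = 0.400) and that of Acta1 was -0.31 (95% interval -0.74 to 0.13; adjusted p = 0.396). Atp2a1 gave the unadjusted p, at -0.41 (95% interval -0.79 to -0.03; adjusted p = 0.168) by limma. Actn2 was the only member without overlap, which held for 19.4% of all features: it was at 5.68 to 6.01 in T2_NPC and at 5.29 to 5.48 in T2, and its limma difference was 0.42 (95% interval -0.0028 to 0.84; adjusted p = 0.209). All T2_NPC arrays lay on 1 slide of the third session, so slide, session and transplant cannot be told apart.

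The T2_NPC result depended on which T2 arrays were used. With the 12 undisputed arrays, which keep 2 T2 arrays of the first session and all 4 T2_NPC arrays, 5 members were called lower by limma. Tnnc2 differed by -1.28 (adjusted p = 0.00663), Tnnc1 by -0.85 (adjusted p = 0.0198), Atp2a1 by -0.63 (adjusted p = 0.0172), Tnni2 by -0.51 (adjusted p = 0.0299) and Mylpf by -0.49 (adjusted p = 0.0313). In that subset 7399 features were called, 20.9% of all, against 3359 with all 28 arrays, and 10.3% were called lower. Tnnc2 was at 10.56 and 10.87 on the T2 arrays that were kept and at 9.71 and 9.35 on those left out, so the pair that was kept was the higher one. In every time-course group the first-session means of these 5 members were above the second-session means, for Tnnc2 by 0.38 to 1.18. The T2_NPC arrays were all scanned in the third session, so session and transplant cannot be told apart in this subset either.

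At 1 week the transplanted cords are described only. By the outputs matched by spot rank, all T1_NPC arrays lay on 1 slide of the third session, which held no T1 array. Slide, session and transplant therefore cannot be told apart here either. Tnnc2 was at 8.29, 11.56, 10.06 and 8.87 in T1_NPC, the widest spread of the 7 groups, and replicate 2 was less than 1 log2 unit below the lowest T0 array. The mean difference from T1 was 0.44 ± 0.47, and without that replicate it was -0.18. In the same replicate Tnnt3 was at 5.07, against 6.09 to 7.29 in the other replicates, so it was near T0 for Tnnt3 too. Acta1, in contrast, was at 8.32, 8.39, 8.65 and 8.47, with replicate 2 among its neighbours. Acta1 differed from T1 by -0.66 ± 0.21, Tnni2 by -0.55 ± 0.21, Actn2 by 0.50 ± 0.20 and Ckm by 0.71 ± 0.36. Acta1 was the 1 member called, beside 11.9% of all features, and Ckm the 1 without overlap, beside 16.3%. Ckm was near background here, well above it on 3 T1_NPC and 2 T1 arrays. The lowest signal well above background was 4.21 to 4.44 on the T1_NPC arrays and 3.39 to 3.98 on the T1 arrays.

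The members did not vary as a block within groups either. After each group's mean was removed, Tnnc2 and Tnnc1 correlated at r = 0.81 over the 28 arrays, and at 0.87 without T1_NPC replicates 1 and 2, the arrays with the most extreme Tnnc2 deviations. Within the scan sessions r was 0.58, 0.76 and 0.91. Tnnc2 correlated with Mylpf at 0.66 and with Atp2a1 at 0.53. It ran against Tnnt3 at -0.65, which was -0.48 without those arrays and 0.20, -0.36 and -0.88 within the sessions, and against Actn2 at -0.63, which was -0.12, -0.30 and -0.90 within the sessions. With Acta1 it stood at 0.11 and with Tnni2 at -0.01, the latter 0.54 without those arrays. The troponin C genes and Mylpf thus moved together among arrays of a group, while Tnnt3 and Actn2 had high values where Tnnc2 was low mainly on the transplant arrays. These are descriptions over arrays that share slides and sessions.

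**Figure D3:**
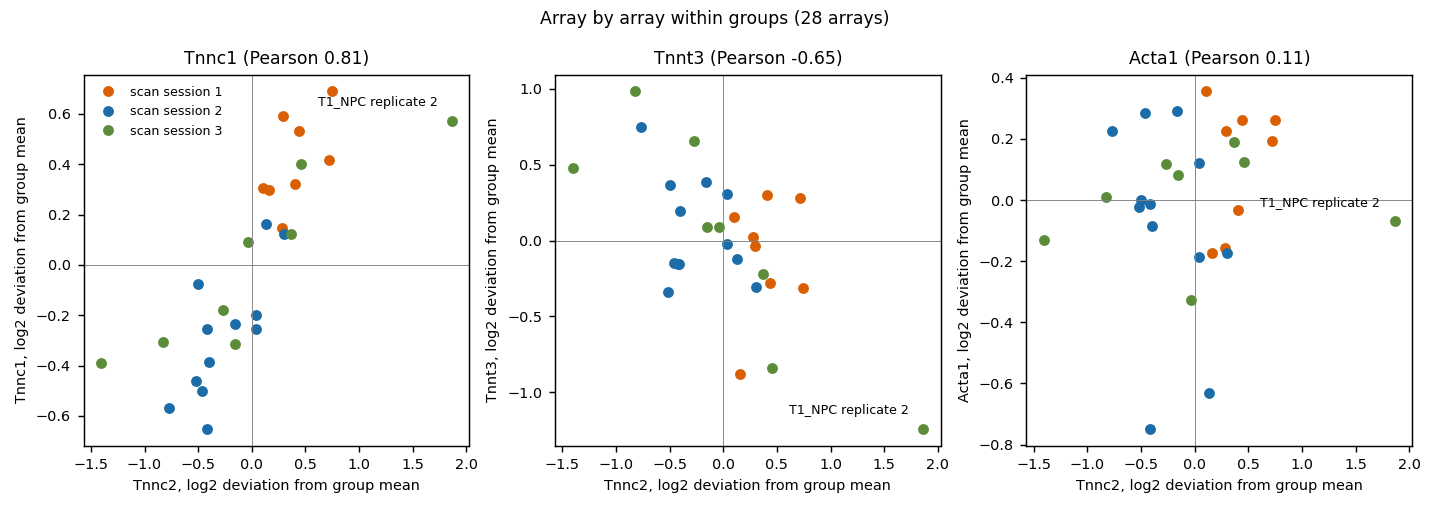
Deviation from the group mean (log2, y axis) of Tnnc1, Tnnt3 and Acta1 against that of Tnnc2 (log2, x axis), with 1 point for each of 28 arrays. Tnnc1 followed Tnnc2 (r = 0.81), Tnnt3 ran against it (r = -0.65), Acta1 showed little relation (r = 0.11), and T1_NPC replicate 2 lies apart in Tnnc2.

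Over the 28 arrays the levels most like Tnnc2 among 12280 named features well above background on at least 14 arrays were those of RragB (r = 0.965), Tm2d3 (r = 0.943), Tox3 (r = 0.939), Spsb3 (r = 0.938), Tcea2 (r = 0.937), Hagh, Shd, Ubxd4, Meis2 and Cacnb1 (r = 0.930). All 10 were lower at T1 than at T0, by less than Tnnc2, with RragB at -1.43 and Cacnb1, a calcium channel beta subunit, at -1.60. For the mean of the members, with group means removed, the features most alike included Coq6 (r = 0.901), Adnp, Apoa1bp, Armc9, Taf1d, Tbcb, Nudt14, Dnajc4 and Atp5j (r = 0.852). None of these genes stood in the lists of muscle genes used here. The lists held the calcium channel subunit genes Cacna1s and Cacng1 but not Cacnb1, so absence from them does not set a gene apart from muscle.

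Markers of other cell types differed from T0 on the same arrays. All 10 neuronal genes measured were called lower in each injured group, beside 25.1% of all features called lower at T1 and 21.5% at T8. Their mean level was 12.73 to 13.01 in T0 against 10.53 to 11.58 at T1. All 6 genes of microglia and macrophages and all 6 of fibroblasts and meninges were called higher, beside 19.1% of all features at T1. The mean level of the former was 8.82 ± 0.14 (SD, n = 4) in T0 and 11.85 ± 0.31 at T1. The latter lay at 9.49 to 10.14 in T0 and at 13.70 to 14.55 at T1. By group means in T0 and T1, the lists of Schwann cells (8.49 and 10.78), adipocytes (4.10 and 6.72) and smooth muscle (7.53 and 8.33) were also higher. Those of oligodendrocytes (15.07 and 14.42) and astrocytes (12.78 and 12.03) were lower. Within groups Tnnc2 correlated with the neuronal list at 0.74, with the macrophage list at -0.76 and with the fibroblast list at -0.67, and Tnnc1 with the neuronal list at 0.77. With the mean of the 82 other skeletal muscle genes described below, Tnnc2 correlated at 0.63 within groups. Its values with their role lists ran from -0.40 (thin filament) to 0.69 (Z disc and titin). Tnnt3 correlated with the fibroblast list at 0.67, while Acta1 stood at 0.12 with the neuronal and 0.03 with the fibroblast list. The fibroblast and macrophage lists spread most within T1_NPC (SD 1.09 and 0.67), and the neuronal list within T2 (SD 0.68). These list correlations are not given without the T1_NPC arrays. The part of these cell types in the members' differences was not tested.

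Muscle itself lies next to the cord, and its defining genes were read on every array. Of 14 such genes beyond the members, 13 were on the array. Titin (Ttn) was above background on no array and the fast myosin heavy chain gene Myh4 on 1, T2_NPC replicate 1. Myog, a regulator of muscle differentiation, was above background on 7 arrays. The myosin heavy chain genes Myh1 and Myh7, and also Neb, Ryr1, Casq1, Mb, Pygm and Actn3, were above background on all 28 arrays, T0 included. At T1 the group mean was below T0 for 8 of the 13 and above it for 5: Myh7 was at 10.01 in T0 and at 8.39 at T1, Myh1 at 8.02 and 9.04. Myh2 was above background on 22 arrays, with a mean of 5.48 in T0 and 4.09 at T1. In T0 Ttn, Myh4 and Myog were well above background on no array and Myod1 on 2. Myh1, Myh2, Myh7, Neb, Ryr1, Casq1, Mb, Pygm and Actn3 were so on all 4 T0 arrays. The share of muscle tissue in the samples was not tested.

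The wider muscle lists, like the members, held genes on both sides. Of 88 other skeletal muscle genes 82 were on the array, 48 of them well above background on all 28 arrays and 5 on none. At T1 16 were called higher and 24 lower than at T0, beside 44.1% of all features called, with a median difference of -0.05 against -0.10 over all features. At T8 18 were higher and 16 lower, beside 18.2% and 21.5% of all features, with a median of -0.01 against -0.04. The share of these genes called, 40 and 34 of 82, was near that of all features.

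**Figure D4:**
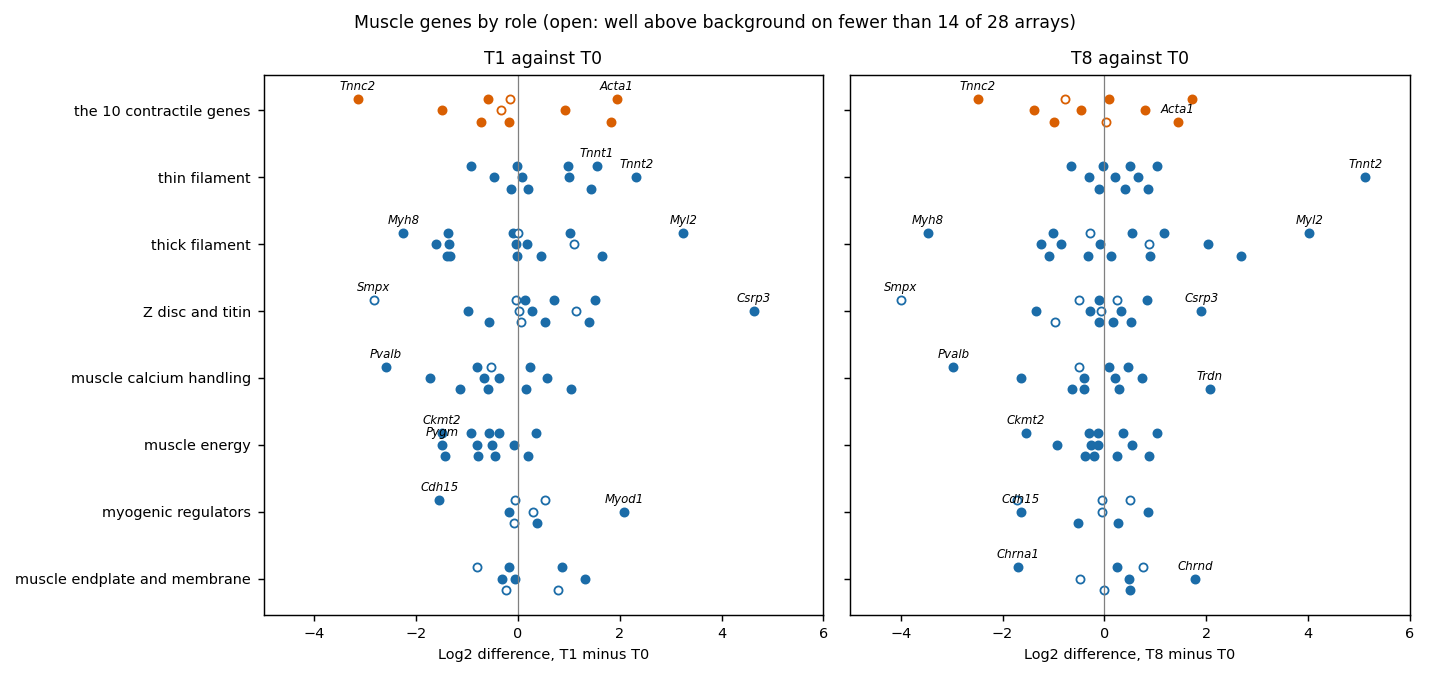
Log2 difference from T0 (x axis) at T1 (left) and T8 (right) of the muscle genes by role list (y axis), with 1 point per gene and open points for genes well above background on fewer than 14 of 28 arrays. Every role list holds genes above and below 0, and Tnnt2 stands highest at T8, at 5.13.

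Among thin filament genes the troponin T forms of heart and slow muscle were higher after injury. The group mean of cardiac Tnnt2 was 7.19 in T0 and 9.51, 9.64, 10.38 and 12.32 at T1, T2, T4 and T8, a difference from T0 of 5.13 ± 0.40 at T8. Slow Tnnt1 was at 7.51 in T0 and at 9.06, 9.09, 8.77 and 8.54. Together with Tnnt3, all forms of troponin T had higher group means after injury, whereas both forms of troponin C had lower ones. In the thick filament list Myl2, the slow and cardiac regulatory light chain, was not well above background in T0 and was at least 3.65, 5.23, 4.62 and 6.29-fold higher at T1, T2, T4 and T8. The perinatal myosin heavy chain gene Myh8 was at 7.47 in T0 and at 5.22, 3.93, 4.03 and 4.01.

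In the Z disc list Csrp3, the muscle LIM protein gene, was at 4.71 in T0 and at 9.35, 8.63, 7.34 and 6.62 at T1, T2, T4 and T8, a difference of 4.64 ± 0.30 at T1. Smpx was at 6.26 in T0 and on no T8 array well above background, at least 6.05-fold lower there. The calcium buffer gene Pvalb, used by fast fibres and by some neurons, was at 13.57 in T0 and at 10.97 at T1. Triadin (Trdn) had a T0 mean of 2.88, with only 1 T0 array well above background, and was at 4.95 at T8. In the energy list mitochondrial creatine kinase (Ckmt2) was at 6.22 in T0 and at 4.72 at T1, and glycogen phosphorylase (Pygm) was at 11.57 in T0, 10.07 at T1 and 11.45 at T8. Myod1, which drives myoblast fate, was at 4.56 in T0, 6.65 at T1 and 4.05 at T8, while the cadherin gene Cdh15 went from 8.07 to 6.53 and 6.42. Of the muscle acetylcholine receptor subunits, Chrnd was at least 2.87-fold higher at T4 than at T0, where it was not above background, and Chrna1 was at least 1.81-fold lower at T8.

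In the comparisons that did not serve to choose the members, none of the 82 genes was called by limma between T2 and T4 or between T4 and T8. Of the 82, 16 and 10 had an unadjusted limma p under 0.05, beside 3198 and 1716 of all 35469 features. Between T2_NPC and T2 limma called 6 of them, 1 higher and 5 lower, beside 4.62% and 4.85% of all features. Tnnt1 fell by 1.38 (adjusted p = 0.000251), Pln, the phospholamban gene, by 1.69 (adjusted p = 0.000811), Neb by 0.84 (adjusted p = 0.0477), Tpm2 by 0.69 (adjusted p = 0.0397) and Jsrp1 by 0.69 (adjusted p = 0.0396) on the log2 scale with limma. Myh4 was higher by 1.81 (adjusted p = 0.0257 by limma) and was well above background on 1 array only. As for the members, slide and session cannot be told apart from the transplant. With scanner outputs under their deposited sample names 46 features of the whole array were called in this comparison, against 3359 as reported. Values of these 6 genes under those names are not given here.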

How the data were processed

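RNA of 1.5 cm of rat cord from 28 animals (7 groups of 4) was labelled with Cy3 and hybridised to 1-colour Agilent arrays. The authors deposited scanner intensity values from Agilent Feature Extraction 10.7.1.1 (per the file headers) and a table of log2 values that they had quantile-normalised. The main values were those log2 values, averaged over spots of a probe and probes of a name. Control spots were left out. Probe intensity well above background was read from the scanner outputs, matched to the table by spot rank. All 28 arrays were fitted in limma 3.58.1 (R 4.3.3) with group means, eBayes and Benjamini-Hochberg adjustment over 35469 features. The fit was tested on simulated data. Bounds for dim probes used the lowest signal well above background on each array. The members and lists were chosen with earlier results of these data known. Besides the members, up to 2 genes of each muscle list with the largest difference from T0 were named, and the 10 features most like Tnnc2 and most like the mean of the members. Genes and probes singled out beyond this rule, such as Nrn1 and the marker genes, were chosen by their place in a ranking or list. A named feature and some probe sequences are not reported here.

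Alternatives were 75th percentile scaling, normexp background correction (offset 50, on median signals, since not all scanner outputs hold mean signals), dim probes left out, the brightest probe, single probes, blocks for slide, scan session and replicate number, fewer groups in the fit, other eBayes settings, the scanner outputs under rank-matched or deposited sample names, and each array left out in turn. The fit on the 12 arrays whose own output matches was chosen after seeing the data. Replicate numbers did not pair the samples. The number of arrays limits the precision, and p-values measure the spread between biological replicates. Analyses used Python 3.11.15.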

Additional observations from a re-analysis of the deposited data

Results flagged for a closer look

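In each group of 4 arrays the gap between an extreme array and its neighbour was compared with Dixon's critical value, for 25 items (the members, their mean and the named muscle genes) in 7 groups. Of the 175 groups 8 passed, and chance alone gives about 1 in 20. In Tnnt3 the T0 replicate 3 was at 3.95, with the others at 5.02 to 5.21, and T2 replicate 4 was at 7.25, with the others at 6.19 to 6.35. In Acta1 the T2 replicate 1 was at 7.65, against 8.62 to 8.66, and T2_NPC replicate 4 was at 7.77, against 8.18 to 8.22. In Ckm, near background, T0 replicate 4 was at 3.23, against 4.34 to 4.45, and T4 replicate 3 was at 2.21, against 3.36 to 3.50. In Mylpf the T4 replicate 4 was at 7.73, against 7.19 to 7.25. In the perinatal myosin gene Myh8 the T1_NPC replicate 2 was at 8.37, against 5.06 to 5.50, and this is the array with the highest Tnnc2 of its group.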

How the results depend on the processing

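Across the settings tried, Tnnc2, Tnnc1 and Mylpf stayed below and Acta1, Tnnt3 and Tnni2 above T0 at T1 and T8, and leaving out any array kept the Tnnc2 difference at T1 between -3.29 and -3.00. With scaling to the 75th percentile the median difference from T0 over all features was -0.28 at T1 and -0.16 at T4, against -0.10 and -0.06 as reported. It gave a median of the other muscle genes of -0.20, 0.16 and 0.17 at T1, T2 and T8, which at T8 was 0.15 without dim probes and 0.21 with the brightest probe. With scanner outputs under their deposited sample names Actn2 was at 0.20 at T1 with the opposite sign, the mean of the members at T2 was 0.022, the within-group correlation of Tnnc2 with Tnnc1 was 0.89, and no feature was called at T1, against 15657. With the 12 undisputed arrays, a fit chosen after seeing the data, the mean of the members was 0.0043 at T1 and -0.13 at T4, the median of the other muscle genes at T4 was 0.11, and 5 members were called in T2_NPC against T2. Counts of all features called ranged from 0 to 374 for T4 against T2 (27 as reported), 0 to 120 for T8 against T4 (32), 46 to 7399 for T2_NPC against T2 (3359), 0 to 1702 for T2 against T1 (525) and 0 to 7299 for T1_NPC against T1 (4225). With the replicate number as a block 0 members were called in the tested comparisons, and 11 and 15 features were called for T4 against T2 and T8 against T4. Same-numbered samples correlated at -0.32 to 0.29, so the numbers were not treated as pairs. The 12 undisputed arrays held 1 T1 and 1 T4 array, so their values at those times rest on 1 injured array each. The causes of these shifts were not tested. Signal over background limits Myl1 and Ckm, whose probes gave bounds or no fold.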
